A study of Mus musculus with 2 samples.

Results

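The 6 genes described here encode S100 calcium-binding proteins: S100a4, S100a6, S100a8, S100a9, S100a10 and S100a11. They were taken by symbol from the 32285 genes of the count tables, which hold 17 S100 family genes in all. The counts are unique molecular identifiers (UMIs, each a tagged RNA molecule) from droplet single-cell RNA-seq of CD45-positive immune cells, sorted from subcutaneous tumours of B16F10, a mouse melanoma line. The study compared 1 control library, from tumours after transfer of untreated bone marrow-derived macrophages (BMDMs), with 1 IL4 library, after transfer of BMDMs treated with IL4. Genotype is given as WT for both. Neither age, the number of animals pooled nor the dose of IL4 is given, and a second label field names IL4-treated BMDMs for both libraries; the groups follow the treatment label. The transferred cells carry no label in these data and cannot be told apart from those of the host.

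S100 proteins are small EF-hand proteins that form dimers and bind partner proteins when calcium rises. S100a8 and S100a9 form calprotectin, which fills the cytosol of neutrophils and is released in inflammation, where it acts on Tlr4 and Ager. S100a4 and S100a6 are abundant in motile cells and memory lymphocytes, S100a10 forms a complex with annexin A2 at the plasma membrane, and S100a11 binds annexin A1.

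All members lie on chromosome 3 (mm10, the build of the count tables; coordinates from GENCODE release 21 of the mouse annotation, on that build), and each is protein-coding. S100a4 (ENSMUSG00000001020) spans chr3:90603771-90606045 and S100a6 (ENSMUSG00000001025) spans chr3:90612882-90624181, both on the plus strand. S100a8 (ENSMUSG00000056054) spans chr3:90668978-90670035 on the plus strand, and S100a9 (ENSMUSG00000056071) spans chr3:90692632-90695721 on the minus strand, with 22596 bases between them. S100a11 (ENSMUSG00000027907, chr3:93520488-93526287) and S100a10 (ENSMUSG00000041959, chr3:93555080-93564643) lie on the plus strand, 2824766 bases beyond S100a9.

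The promoters of S100a8 and S100a9 are shown because these genes rose and fell together across the cell types. Each window holds 250 bases before and 50 after the RefSeq transcript start (build GRCm38.p6): chr3:90668821-90669120, plus strand, for S100a8 and chr3:90695672-90695971, minus strand, for S100a9. Capitals mark the TATA box letters TATAAA in both and TTGCTTAA in S100a9.
S100a8: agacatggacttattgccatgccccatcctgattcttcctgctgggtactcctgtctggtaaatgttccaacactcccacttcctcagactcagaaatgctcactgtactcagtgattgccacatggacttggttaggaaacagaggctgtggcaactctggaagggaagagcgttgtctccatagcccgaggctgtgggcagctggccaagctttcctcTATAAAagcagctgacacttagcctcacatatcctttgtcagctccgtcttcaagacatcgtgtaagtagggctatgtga
S100a9: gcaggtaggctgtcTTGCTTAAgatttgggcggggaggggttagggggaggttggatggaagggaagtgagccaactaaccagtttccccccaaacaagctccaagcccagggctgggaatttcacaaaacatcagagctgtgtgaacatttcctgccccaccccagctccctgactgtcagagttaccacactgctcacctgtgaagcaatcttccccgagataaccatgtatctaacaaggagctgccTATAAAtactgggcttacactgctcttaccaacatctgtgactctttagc
The TATA box letters and TTGCNNAA, for factors of the C/EBP family, were searched on both strands. The TATA box letters start at position 221 of the S100a8 window and 251 of the S100a9 window, counted from 1, and are found in 13.6% of 32851 promoter windows of this length. The C/EBP letters, in the S100a9 window from position 15, are found in 10.8% of windows. S100a4 also held the TATA box letters, S100a6 and S100a11 held neither motif, and no window was matched for S100a10. A match of letters is a description, not a measured binding site.

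After filters on UMIs, detected genes and mitochondrial share, 8937 control and 13762 IL4 barcodes were kept, with medians of 9156 and 8213 UMIs over all barcodes deposited. The libraries shared 23 kept barcodes. Cell types were gated from 8 marker genes each, none of them an S100 gene, which placed 73.7% of control and 72.2% of IL4 barcodes. Ptprc, which encodes CD45, had a UMI in 89.0% and 89.9% of barcodes. Of the barcodes that held Xist or a Y-linked UMI but not both, 36.8% in control and 10.9% in IL4 were Y-only. The libraries thus differed in their mix of sex-linked transcripts, and the source of this difference was not tested. With 1 library per group no test of the treatment is possible. The intervals given are exact 95% Poisson or binomial intervals and cover counting error only. Levels are CPM, the UMIs of a gene per 1000000 UMIs of the summed barcodes of a type. A gene is called higher or lower at 1.5-fold of CPM + 1, given at least 20 UMIs, and every count of calls is set beside the share of all tested genes that pass the same rule.

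Neutrophils carried S100a8 and S100a9 at levels far above any other gated type and, between the libraries, more of both in IL4. The gate rested on Csf3r, Cxcr2, Retnlg, Il1r2, Mmp9, Hdc, G0s2 and Mmp8 and held 210 control barcodes (2.35% of kept barcodes) and 99 IL4 barcodes (0.719%), with median depths of 2859 and 2429 UMIs. Of these barcodes, 303 fell in the neutrophil cluster of a clustering that used no S100 gene. At the lower limit of 3 markers stood 26 control and 5 IL4 barcodes. The median barcode held 5 and 6 of the 8 neutrophil markers, and 1 marker of its next best list, that of classical monocytes.

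S100a8, the smaller calprotectin subunit, was at 6141 CPM in control neutrophils (interval 5965 to 6322) and 9943 CPM in IL4 neutrophils (9570 to 10327), a ratio of 1.62 (1.54 to 1.70). S100a9, its partner, was at 11951 CPM (11704 to 12202) and 19618 CPM (19092 to 20154), a ratio of 1.64 (1.59 to 1.70). IL4 barcodes were higher at each quartile. For S100a8 the lower quartile, median and upper quartile over barcodes were 1864, 4698 and 10195 CPM in control and 2807, 8176 and 14650 CPM in IL4. For S100a9 they were 3212, 9449 and 19696 CPM in control and 6451, 16428 and 27911 CPM in IL4. The barcodes of the libraries overlapped widely, and the highest S100a9 value, 102771 CPM, was a control barcode. Averaging CPM over barcodes in place of summing UMIs gave log2 ratios of 0.50 for S100a8 and 0.52 for S100a9, below the 1.5-fold limit, against 0.70 and 0.71 from the sums.

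**Figure D1:**
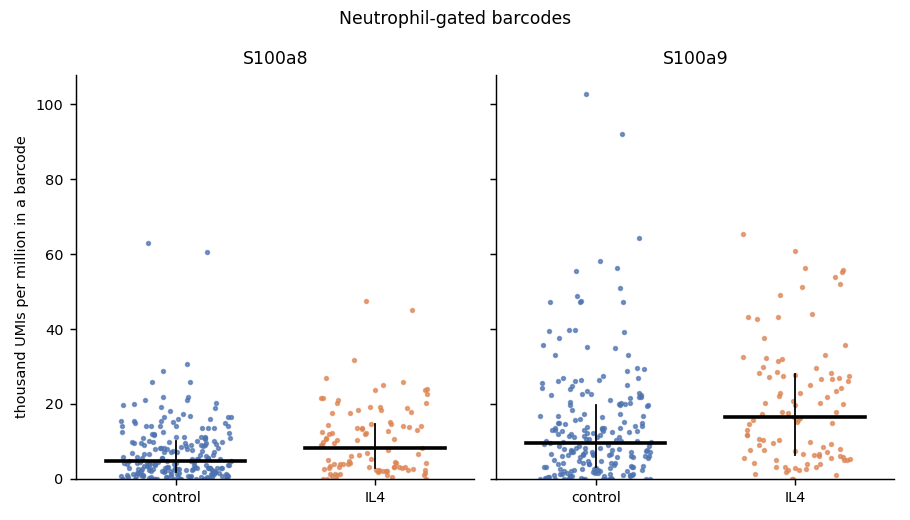
S100a8 and S100a9 in each neutrophil-gated barcode, as CPM of that barcode divided by 1000 (linear axis). Points are barcodes (210 control, 99 IL4), horizontal lines medians and vertical lines the quartiles; the IL4 medians lie above the control medians while the points overlap.

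The genes moved together from barcode to barcode. Both had a UMI in 90.0% of control and 96.0% of IL4 neutrophils, and 8 and 2 barcodes held neither. Across neutrophil barcodes the Pearson correlation of log2(CPM + 100) was 0.83 in control and 0.84 in IL4, as a description over 210 and 99 barcodes that share library and depth. S100a8 stood at 51.4 UMIs per 100 S100a9 UMIs in control (49.6 to 53.3) and 50.7 in IL4 (48.4 to 53.1), so the proportion between the subunits' transcripts was alike in both libraries within these intervals.

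S100a6 and S100a11 were also higher in IL4 neutrophils but stopped just short of 1.5-fold. S100a6, calcyclin, was at 1871 and 2786 CPM (ratio 1.49, 1.36 to 1.63), and S100a11 at 2197 and 3242 CPM (1.48, 1.36 to 1.60). S100a4 (231 and 249 CPM, ratio 1.08, 0.800 to 1.44) and S100a10 (227 and 193 CPM, 0.852, 0.612 to 1.17) had intervals that include no difference. In all, 2 of 6 members were called higher and 0 lower in neutrophils, where 12.6% of 4742 tested genes were called higher and 31.5% in either direction. The members' median log2 ratio was 0.57, against -0.03 over all tested genes. Of the 8 gate markers, Retnlg, which encodes a secreted resistin-like protein, was the only one called: it went from 1129 to 2199 CPM (1.95, 1.75 to 2.17). G0s2, the marker with the most UMIs, was at 7564 and 7904 CPM.

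Sex-linked transcripts moved with the neutrophil comparison. Of the neutrophils that held Xist or a Y-linked UMI but not both, 67.7% were Y-only in control and 39.3% in IL4. Among Xist-only neutrophils (31 control, 17 IL4) the log2 ratios were 0.97 for S100a8 and 1.01 for S100a9. Among Y-only neutrophils (65 and 11) they were 0.94 and 0.52, the latter below the 1.5-fold limit. S100a11 was at a log2 ratio of 1.11 in the former and 0.10 in the latter. The sign of the S100a8, S100a9, S100a6 and S100a11 ratios was the same in both subsets.

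**Figure D2:**
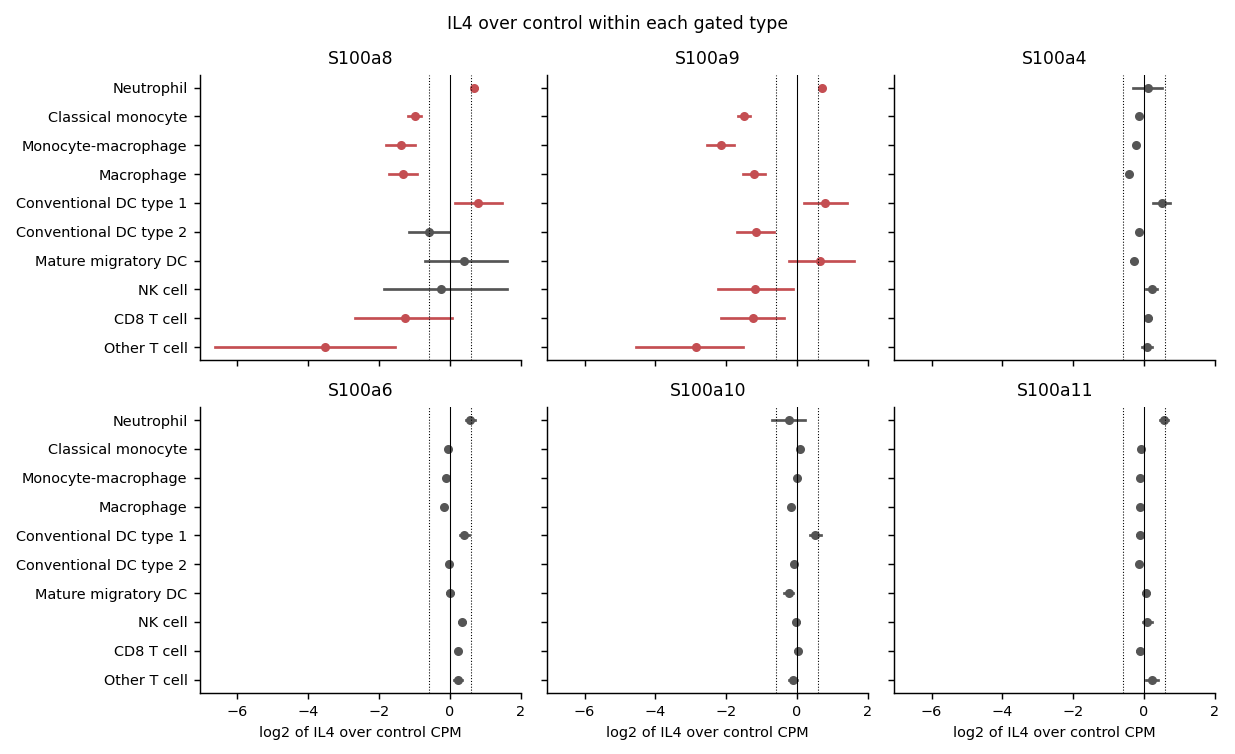
Log2 of IL4 over control CPM for each member in the 10 types with at least 50 barcodes in each library. Points are ratios, lines exact 95% intervals for counting error, dotted lines 1.5-fold; red marks called ratios, which are confined to S100a8 and S100a9, positive in neutrophils and in type 1 and mature dendritic cells and negative in the other types where they were called.

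Over all kept barcodes the direction was the opposite. S100a8 was at 86.2 CPM in the control library and 32.4 CPM in the IL4 library, a ratio of 0.376 (0.363 to 0.391). S100a9 was at 166 and 58.7 CPM, a ratio of 0.354 (0.345 to 0.364). These were the only members called in the sums over all barcodes, 2 of 6 lower where 0.983% of all tested genes were. The neutrophil share of barcodes differed in the same direction, 2.35% against 0.719%.

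Neutrophil-gated barcodes held 0.781% of all control UMIs and 0.203% of all IL4 UMIs, yet 56.2% (55.5 to 56.8) and 65.7% (64.9 to 66.6) of the UMIs of S100a8 and S100a9 together. Ungated barcodes held another 32.4% and 20.9%, and classical monocytes 6.40% and 7.12%. When the neutrophil cluster (406 control and 161 IL4 barcodes) replaced the gate, it held 83.1% and 83.2%. For the other members the neutrophil gate held at most 2.11% of the UMIs, reached by S100a11 in control. S100a4 had its largest gated share in classical monocytes, with 25.1% and 26.1% of its UMIs.

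**Figure D3:**
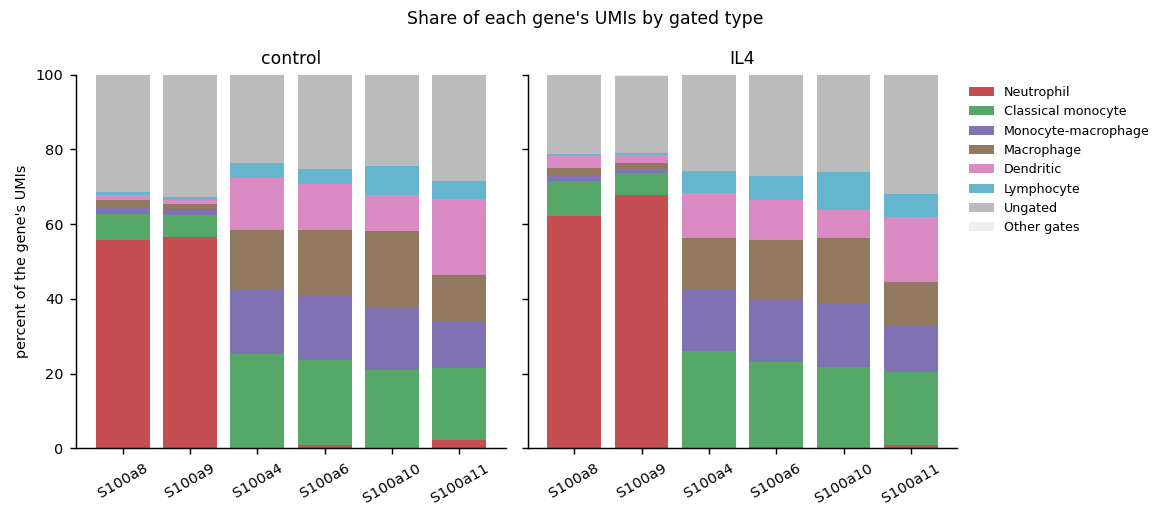
Percent of each member's UMIs held by each gated type, in control (left) and IL4 (right). Each bar adds up to 100%; neutrophils (red) hold 56.2% and 65.7% of the S100a8 and S100a9 UMIs together and at most 2.11% of any other member's.

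Outside neutrophils S100a8 and S100a9 were sparse, and free RNA from neutrophils has to be read beside them. Lymphocytes, which lack calprotectin, give the background. NK, T and B barcodes pooled (544 control, 1014 IL4) held 58 and 24 S100a8 UMIs and 118 and 44 S100a9 UMIs. Neutrophils stood above them 689-fold (532 to 909) for S100a8 and 659-fold (550 to 797) for S100a9 in control, and 4649-fold (3117 to 7268) and 5003-fold (3721 to 6894) in IL4. The lymphocyte level was lower in the library with fewer neutrophils. In control it leaned on single barcodes: 1 held 85.7% of the S100a8 UMIs of T cells without Cd8a or Cd8b1, and 1 held 58.3% of those of B cells.

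In classical monocytes S100a8 was at 33.9 CPM in control and 17.1 CPM in IL4 (0.504, 0.443 to 0.573), and S100a9 at 55.4 and 19.7 CPM (0.356, 0.318 to 0.398). Monocyte-macrophage barcodes, which carry both marker lists, had 10.7 and 4.07 CPM of S100a8 and 17.6 and 3.96 CPM of S100a9. Macrophages had 9.30 and 3.70 CPM of S100a8 (0.398, 0.303 to 0.521) and 12.99 and 5.62 CPM of S100a9 (0.433, 0.346 to 0.540). In each of these 3 types 2 of 6 members, S100a8 and S100a9, were called lower. The share of all tested genes called lower was 2.19% in classical monocytes, 2.92% in monocyte-macrophages and 3.20% in macrophages.

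Of the monocyte, macrophage and dendritic cell types compared, classical monocytes alone had intervals above the pooled lymphocyte level for both genes in both libraries. The pooled level hides a spread between lymphocyte types. Control B cells alone had 70.6 CPM of S100a9 (48.0 to 100), which overlaps the classical monocyte interval (51.9 to 59.0), while IL4 B cells had 0 UMIs. The folds that follow are for classical monocytes over pooled lymphocytes. Classical monocytes exceeded the pooled level 3.80-fold (2.90 to 5.07) for S100a8 and 3.05-fold (2.52 to 3.73) for S100a9 in control, and 7.98-fold (5.29 to 12.6) and 5.03-fold (3.69 to 7.02) in IL4. Macrophages were at 1.04 times the lymphocyte level of S100a8 in control (0.768 to 1.43) and 1.73 times in IL4 (1.09 to 2.85). For S100a9 they were at 0.716 times (0.571 to 0.903) and 1.43 times (1.01 to 2.07).

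A few barcodes carried much of this. In classical monocytes the 3 barcodes with the most S100a9 held 43.8% of its UMIs in control and 55.4% in IL4. In type 1 conventional dendritic cells, where both genes were called higher in IL4 (2 of 6, against 5.45% of all tested genes), 1 IL4 barcode held 86.2% of the S100a8 UMIs. The remaining calls were S100a9 lower in type 2 conventional dendritic cells (1 of 6, against 5.97%) and NK cells (1 of 5 tested, against 6.66%), both genes lower in CD8 T cells (2 of 6, against 5.25%; the S100a8 interval, 0.156 to 1.04, includes no difference) and other T cells (2 of 6 in either direction, against 19.4%), and S100a9 higher in mature migratory dendritic cells (1 of 6, against 7.12%), whose interval (0.861 to 3.04) also includes no difference. Each of these rests on levels of at most 31.9 CPM.

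Barcodes outside the neutrophil gate that held a UMI of Retnlg, Cxcr2 or G0s2 were then left out, a choice made after these levels were seen. This removed 7.98% of control and 2.98% of IL4 classical monocytes, and with them 69.0% and 58.8% of that type's S100a8 UMIs. What remained was 11.5 CPM of S100a8 (9.93 to 13.4) in control and 7.29 CPM (6.22 to 8.49) in IL4, and 16.4 CPM of S100a9 (14.5 to 18.5) and 5.26 CPM (4.36 to 6.29). Macrophages kept 7.83 and 3.02 CPM of S100a8, NK cells 3.17 and 2.46 CPM, and CD8 T cells 4.63 and 1.90 CPM. The IL4 excess in dendritic cells changed direction: S100a9 stood at 6.20 CPM in control and 3.61 CPM in IL4 for type 1, and at 6.93 and 3.32 CPM for mature cells. The residue of both genes was lower in the IL4 library in all 9 types other than neutrophils with at least 50 barcodes in each library. These types share the same pair of libraries, so they are not separate observations of the treatment. The intervals of the libraries did not overlap for either gene in classical monocytes, monocyte-macrophages, macrophages and type 2 dendritic cells. They also did not overlap for S100a9 in CD8 T cells (6.55 to 14.7 in control, 2.41 to 6.26 in IL4), a lymphocyte type. For S100a8 they overlapped in the other types. Neither the share of all genes that were lower in all 9 types nor the share whose intervals fail to overlap was computed. These values therefore do not set S100a8 and S100a9 apart from the rest.

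**Figure D4:**
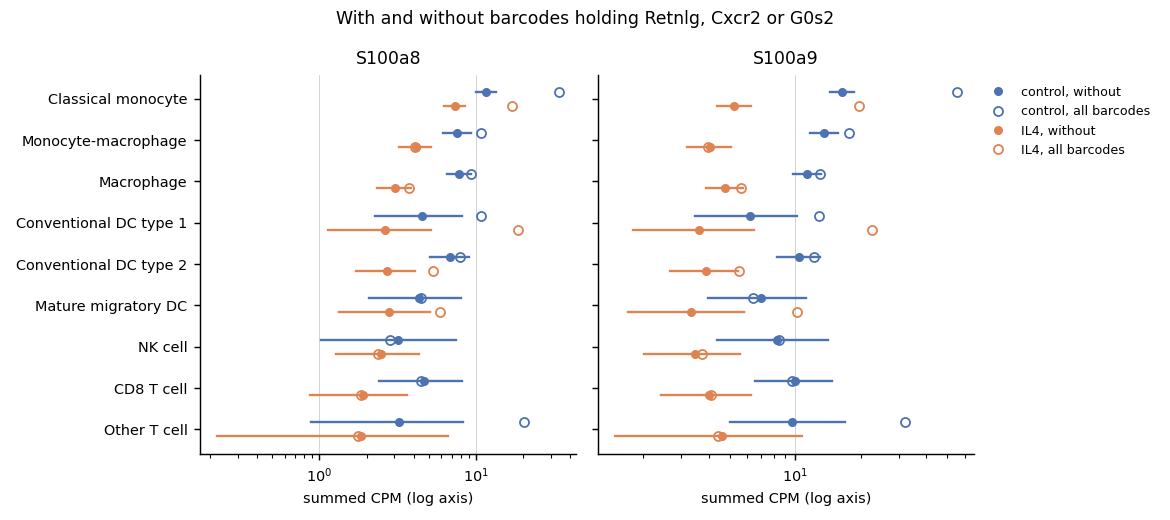
S100a8 and S100a9 CPM (log axis) outside the neutrophil gate, with all barcodes (open circles) and without barcodes holding Retnlg, Cxcr2 or G0s2 (filled circles, lines exact 95% intervals). Without them the IL4 values lie below the control values in every type shown, and classical monocytes come down from 33.9 to 11.5 CPM of S100a8 in control.

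Shares of barcodes with a UMI were also compared at a fixed depth. With each barcode thinned to 1000 UMIs, S100a8 was detected in 84.7% of control and 95.7% of IL4 neutrophils (93.3% and 96.0% unthinned). In classical monocytes it was detected in 1.33% and 0.867% (7.81% and 4.27% unthinned, at median depths of 8947 and 7966 UMIs). In NK cells, at 6987 and 6934 UMIs, it was detected in 0 of 201 and 0 of 534 thinned barcodes (2.49% and 2.25% unthinned), which allows up to 1.82% and 0.688%. The monocyte intervals (0.852% to 1.97% and 0.556% to 1.29%) overlapped each other and held the NK limit of their own library. Such overlap does not show that the shares are equal, and a difference between them was not tested. Other neutrophil genes were compared by their UMIs relative to S100a9, and Cxcr2, Mmp9 and Retnlg are given singly. Cxcr2 stood at 4.02 and 2.82 UMIs per 100 S100a9 UMIs in neutrophils and at 3.99 (2.80 to 5.51) and 3.90 (2.29 to 6.23) in classical monocytes, intervals that hold the neutrophil values. Mmp9 did so too, at 2.10 and 1.74 in neutrophils and 2.41 (1.52 to 3.64) and 1.95 (0.885 to 3.73) in monocytes. Retnlg did not, at 9.44 and 11.2 in neutrophils and 3.67 (2.54 to 5.14) and 3.03 (1.64 to 5.14) in monocytes. The 8 neutrophil markers together stood higher relative to S100a9 in classical monocytes than in neutrophils. They summed to 14239 and 16297 CPM in neutrophils, beside 11951 and 19618 CPM of S100a9. In classical monocytes they summed to 212 and 168 CPM, beside 55.4 and 19.7 CPM of S100a9. The list includes Mmp8, a top gene of a cluster named as classical monocytes, so the monocyte sums cannot be read as neutrophil RNA alone. Markers other than Cxcr2, Mmp9 and Retnlg are not given singly for monocytes. S100a8 per 100 S100a9 UMIs was above the neutrophil values in monocytes, at 61.2 (55.1 to 67.9) and 86.6 (75.5 to 99.2). In lymphocytes it was 49.2 (35.3 to 67.9) and 54.5 (31.7 to 91.7), intervals that hold the neutrophil proportion. How much of the monocyte signal came from free RNA, from doublets or from the monocytes themselves was not tested.

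Genes of an 8-gene melanoma list also had UMIs in the gates. They summed to 283 and 241 CPM in macrophages (8 of 8 with a UMI) and 155 and 149 CPM in classical monocytes. In neutrophils they summed to 83.2 and 55.7 CPM (5 of 8), and in NK cells to 25.2 and 31.7 CPM. The list includes Gpnmb, a top gene of an unnamed cluster that raised more macrophage markers than markers of any other list. These sums cannot be read as melanoma RNA alone. The part of melanoma RNA in the levels of the members was not tested.

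The other 4 members were detected across the myeloid and lymphoid types, each with its own order of levels. Markers of classical monocytes, which summed to 5865 and 6488 CPM in their own gate, also had UMIs in other gates. They summed to 1170 and 1423 CPM in type 1 dendritic cells, 920 and 1101 CPM in NK cells and 394 and 592 CPM in mature dendritic cells. How much of the level of these members in a gate came from RNA of other cells was not tested. S100a4, which binds the non-muscle myosin heavy chain Myh9, was highest in classical monocytes at 1462 CPM in control and 1328 CPM in IL4, followed by type 2 conventional dendritic cells at 1389.8 and 1259 CPM. It fell along the monocyte gates, with 1249.6 and 1069 CPM in monocyte-macrophages and 937 and 703 CPM in macrophages. CD8 T cells had 873 and 948 CPM and other T cells 559 and 594 CPM. NK cells, at 257 and 299 CPM, and neutrophils, at 231 and 249 CPM, were not apart within counting error. Type 1 conventional dendritic cells were lowest at 82.4 and 117 CPM, 17.7-fold (15.6 to 20.3) and 11.4-fold (10.3 to 12.7) below classical monocytes. S100a4 thus separated the conventional dendritic cell types more widely than any other member, as a description of these sums.

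Between the libraries S100a4 was lower in IL4 macrophages at 0.750 times the control level (0.734 to 0.767) and in mature migratory dendritic cells at 0.816 times (0.773 to 0.861), and was higher in type 1 dendritic cells at 1.42 times (1.20 to 1.68). The last of these turned in Y-only barcodes, to a log2 ratio of -0.37. In macrophages the median barcode moved from 745 to 528 CPM, and the share with a UMI from 90.1% to 84.9%. In classical monocytes the ratio was 0.908 (0.893 to 0.923). None of these reached 1.5-fold.

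S100a6 was high in classical monocytes (2297 and 2214 CPM), type 2 dendritic cells (2237 and 2211 CPM) and monocyte-macrophages (2188 and 2045 CPM). Macrophages followed at 1767 and 1585 CPM. CD8 T cells, at 1358 and 1579 CPM, lay above other T cells, at 985 and 1154 CPM. NK cells had 789.8 and 1003 CPM, and type 1 dendritic cells again the least, 333 and 442 CPM. Neutrophils ranked below these myeloid types except macrophages in control and topped the order in IL4. The IL4 to control ratio was above 1 in all 3 lymphocyte types with at least 50 barcodes in each library: 1.27 in NK cells (1.20 to 1.35), 1.16 in CD8 T cells (1.12 to 1.21) and 1.17 in other T cells (1.09 to 1.27). The direction turned in NK cells with Y-only barcodes (log2 ratio -0.21) and in other T cells without the deepest 5% of barcodes (-0.055). In macrophages it was 0.897 (0.883 to 0.911). None was called.

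**Figure D5:**
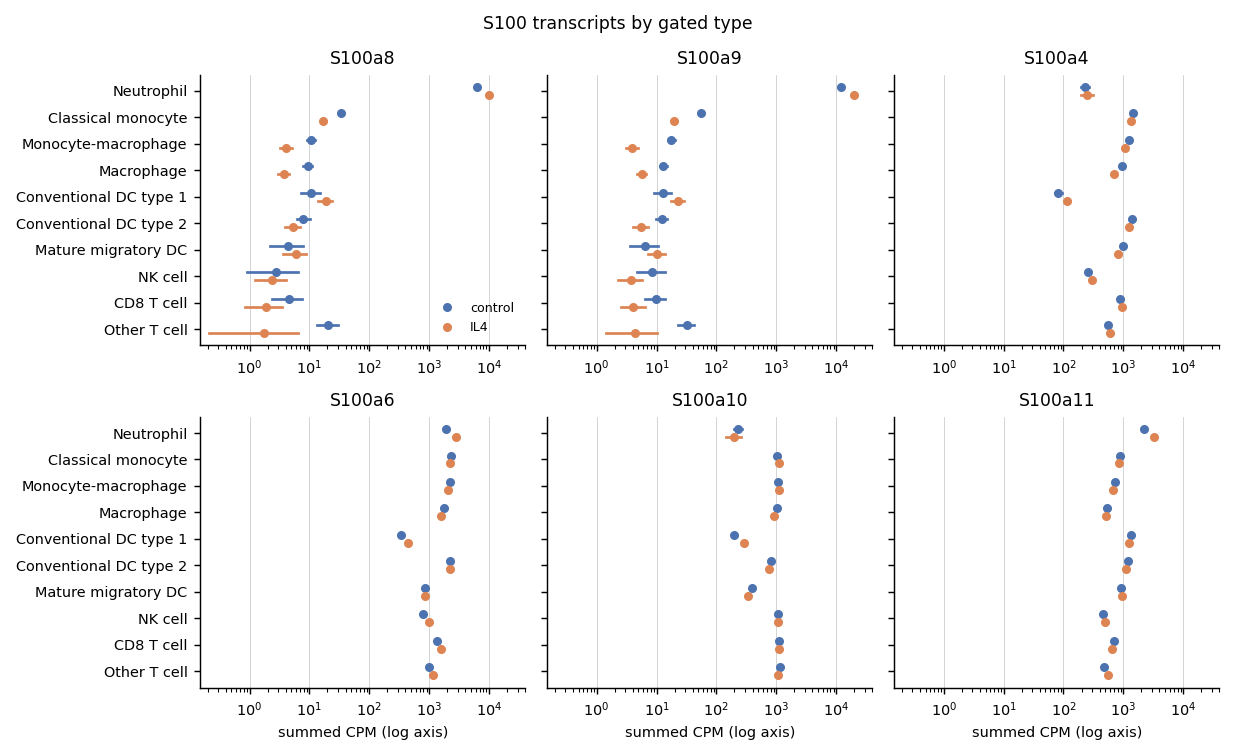
CPM of each member (log axis) in the 10 gated types, control in blue and IL4 in orange. Points are summed barcodes and lines exact 95% intervals; S100a8 and S100a9 stand out in neutrophils, S100a4 is lowest in type 1 conventional dendritic cells, and S100a10 is low in neutrophils and both type 1 and mature dendritic cells.

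S100a10, the annexin A2 ligand, lay within a narrow range across T cells, NK cells, monocytes and macrophages. In control it ran from 1025 CPM in macrophages to 1159 CPM in other T cells, and each of the 6 types in that run overlapped its neighbour within counting error. In IL4 the same types ran from 914 CPM in macrophages to 1118 CPM in CD8 T cells, with macrophages apart from their next neighbour, NK cells, by 1.14-fold (1.11 to 1.18). Mature migratory dendritic cells were at 393 and 335 CPM. Neutrophils (227 and 193 CPM) and type 1 dendritic cells (199.8 and 286 CPM) were lowest, and only 26.7% and 26.3% of neutrophils held a UMI. Among the 10 types, the largest departure between the libraries was in type 1 dendritic cells at 1.43 times (1.29 to 1.60), which turned to a log2 ratio of -0.12 in Y-only barcodes. In classical monocytes the ratio was 1.05 (1.03 to 1.08) and in macrophages 0.891 (0.874 to 0.909).

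S100a11 had an order unlike that of S100a4. Neutrophils led, and type 1 conventional dendritic cells, lowest for S100a4 and S100a6, came next at 1344 and 1234 CPM, above type 2 cells at 1208 and 1097 CPM. Mature dendritic cells had 912 and 949.6 CPM and classical monocytes 877 and 829 CPM. Along the monocyte gates the level came down to 719 and 671 CPM in monocyte-macrophages and 541 and 504 CPM in macrophages. NK cells were lowest at 454 and 486 CPM, 4.84-fold (4.45 to 5.27) and 6.67-fold (6.17 to 7.21) below neutrophils. In the other 9 types the IL4 to control ratios lay between 0.908 (type 2 dendritic cells, 0.883 to 0.934) and 1.17 (other T cells, 1.05 to 1.31).

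Gates with fewer than 50 barcodes in a library give wider intervals. In plasmacytoid dendritic cells (29 and 90 barcodes) S100a4 was at 172 and 180.3 CPM and S100a6 at 651 and 743 CPM, with ratios of 1.05 (0.774 to 1.44) and 1.14 (0.979 to 1.34). In non-classical monocytes (12 and 14 barcodes) S100a4 was at 1071 and 546 CPM (0.510, 0.359 to 0.718). All 29 S100a9 UMIs of the IL4 library in that gate came from 1 barcode. In B cells (67 and 26 barcodes) S100a6 was at 638 and 282 CPM, from 280 and 30 UMIs.

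The other S100 genes gave little signal. Of the 11 remaining family genes only S100a13 and S100a1 reached 20 CPM in any gated type. S100a13 was at 140 and 138 CPM in classical monocytes, 172 and 174 CPM in CD8 T cells and 41.6 and 48.3 CPM in neutrophils. S100a1 was at 30.1 and 19.8 CPM in macrophages. In classical monocytes 2 of the 11, and in macrophages 4, had the 20 UMIs needed for a ratio; 0 of these were called, beside 3.95% and 6.69% of all tested genes in either direction.

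Of 11 partners and receptors, 10 reached 20 CPM in a gated type. Ager, a receptor of S100 proteins, did not, and had 0 UMIs in neutrophils and NK cells. Tlr4, the other calprotectin receptor, was highest in neutrophils at 327 and 386 CPM, and at 66.1 and 51.1 CPM in classical monocytes. In neutrophils 2 of 10 tested partners were called higher in IL4, Anxa1 (93.9 and 178 CPM, 1.90, 1.29 to 2.78) and the S100a10-annexin scaffold Ahnak (158 and 264 CPM, 1.67, 1.22 to 2.25). Another 2 were lower: Bsg, a receptor for S100a9 (345 and 119 CPM, 0.345, 0.231 to 0.499), and the fatty acid receptor Cd36 (31 and 3 UMIs, 0.268, 0.0524 to 0.859). These shares stand beside the 12.6% and 18.9% of all tested genes called higher and lower there. In classical monocytes and macrophages 0 of 10 partners were called, beside 3.95% and 6.69% of all tested genes in either direction. In CD8 T cells 3 of 10 were called (Cd36 higher, Anxa1 and Tlr4 lower, beside 9.30% of all tested genes in either direction), in other T cells 2 (Cd36 and Tlr4 lower, beside 19.4%) and in mature migratory dendritic cells 1 (Anxa6 lower, beside 14.2%). Anxa2 was highest in mature dendritic cells, at 1159.7 and 1162 CPM, where S100a10 was low.

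Genes with the profile most like each member's were ranked by the Pearson correlation of log2(CPM + 1) over 20 sums (10 types in 2 libraries) among 5309 genes. The sums share libraries, so the coefficients are a description. S100a8 and S100a9 were each other's nearest, at 0.995, followed for both by Il1f9 and Cstdc4. Nearest to S100a4 were Ggh (0.883), Foxn3 (0.804) and Slc25a51 (0.793), and to S100a6 Trps1 (0.913), Lilrb4a (0.866) and Rtp4 (0.864). S100a10 was nearest to Bola2 (0.928), Med15 (0.922) and Ifi206 (0.917), and S100a11 to Cmtm6 (0.920), Gcnt2 (0.920) and Trim30b (0.885).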

How the data were processed

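Raw UMI counts per gene and barcode were deposited by the authors as 1 matrix per library, made with Cell Ranger 7.2.0 on mm10 per the submitters' processing notes; further settings are not given in the sources used here. A barcode was kept if it held 500 or more UMIs, 250 or more genes and no more than 10% mitochondrial UMIs. No doublet caller was run. A barcode entered a type when it held at least 3 of that type's 8 markers and led every other list by 2; monocyte-macrophage barcodes met both lists. UMIs were summed per type and library and scaled to CPM, and ratios were called at 1.5-fold on CPM + 1 with at least 20 UMIs. Intervals are exact Poisson or Clopper-Pearson (95%). The calling code was tested on simulated data. Clusters (Leiden, scanpy 1.11.5, 2000 variable genes without S100 genes) served as an alternative; the mast cell list was left out of their naming after the clusters were seen. Named were all members, other S100 genes and partners at 20 CPM or more in a gated type, the 8 neutrophil markers, and the 3 genes most like each member among those at 50 CPM or more. Members and lists were chosen with earlier results of these data known. Of the 32285 gene IDs, 32158 matched the GENCODE annotation used for coordinates; promoter sequences are from RefSeq (GRCm38.p6). Total depth was 95499107 control and 133151428 IL4 UMIs.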

Additional observations from a re-analysis of the deposited data

Results flagged for a closer look

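S100a8 and S100a9 were called in opposite directions in different cell types of the same pair of libraries; the difference between types was not tested, since each type has 1 library per group. For S100a8 the log2 ratio of IL4 over control was 0.70 in neutrophils and 0.75 in type 1 conventional dendritic cells. It was -0.95 in classical monocytes, -1.20 in monocyte-macrophages, -1.13 in macrophages, -0.94 in CD8 T cells and -2.95 in other T cells. For S100a9 it was 0.71 in neutrophils, 0.76 in type 1 conventional dendritic cells and 0.59 in mature migratory dendritic cells. It was -1.44 in classical monocytes, -1.91 in monocyte-macrophages, -1.08 in macrophages and -1.03 in type 2 conventional dendritic cells, and -0.99 in NK cells, -1.06 in CD8 T cells and -2.61 in other T cells. In type 1 dendritic cells of the IL4 library and other T cells of the control library, most S100a8 UMIs came from 1 barcode.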

How the results depend on the processing

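Of 17 called ratios, 2 stayed called in the same direction under every alternative run, S100a9 in classical monocytes and in monocyte-macrophages. For the former 14 alternatives were run and for the latter 13. No cluster was named monocyte-macrophage, so the cluster alternative could not be run for that type. The number of members called in neutrophils was 2; it was 4 at a minimum of 2000 UMIs and when centred on the median gene, and 0 as a mean over barcodes. In classical monocytes it was 2, but 1 with clusters and 1 in Y-only barcodes. In macrophages it was 2, but 0 with a pseudocount of 10. The neutrophil share of S100a8 and S100a9 UMIs (control and IL4) was 54.6% and 64.4% with the stricter gate, 83.1% and 83.2% with clusters, 54.1% and 64.3% at 2000 UMIs, 59.2% and 67.9% without the deepest 5% of barcodes, 32.8% and 38.8% in Xist-only barcodes, 65.2% and 50.7% in Y-only barcodes, and 85.2% and 86.2% without barcodes outside the gate that hold Retnlg, Cxcr2 or G0s2; at 5% mitochondrial UMIs the control share was 55.4%. Neutrophils over lymphocytes for both genes together was 669-fold in control and 4878-fold in IL4, and 116-fold and 491-fold with clusters; in control it was 825-fold without the deepest barcodes and 1200-fold without the barcodes holding neutrophil transcripts. The cause of these shifts was not tested. Of 43 ratios not called, 22 changed sign under at least 1 alternative; among them, in Y-only barcodes, were S100a4, S100a6 and S100a10 in type 1 dendritic cells (-0.37, -0.25 and -0.12), S100a4 and S100a6 in NK cells (-0.51 and -0.21) and S100a4 in neutrophils (-1.01, and -0.26 with clusters). Called ratios that changed sign, on the log2 scale, were as follows. In type 1 dendritic cells, S100a8 was -0.74 with clusters and -0.61 without barcodes holding neutrophil transcripts, and S100a9 was -1.04 with clusters, -0.38 in Y-only barcodes and -0.64 without those barcodes. S100a9 in mature dendritic cells was -1.36 with clusters, -0.72 in Y-only barcodes and -0.88 without those barcodes. In Y-only barcodes S100a9 was 0.72 in NK cells and 0.70 in other T cells, and S100a8 was 0.078 in CD8 T cells. In Xist-only barcodes S100a8 was 0.077 in CD8 T cells. For S100a8 in other T cells the Y-only value was 0.00, which has no direction and is not a change of sign. No paired analysis was possible because each group has 1 library. Depth limits the neutrophil gate, with 99 IL4 barcodes, and every S100a8 and S100a9 level outside it.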
